A study of Mus musculus with 4 samples.

Results

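Small nucleolar RNAs (snoRNAs), small Cajal body RNAs (scaRNAs) and the snoRNA host genes named Snhg or Gas5 were examined in peritoneal macrophages from C57BL/6 mice on a high-fat or a control diet. Members were all gene models whose symbol begins with Snord, Snora, Scarna or Snhg, plus Gas5, which gave 129 of the 24625 models counted. Of these, 115 are small RNAs (70 C/D box snoRNAs, 36 H/ACA box snoRNAs and 9 scaRNAs) and 14 are host genes. The high-fat group (2 libraries) ate a diet with 60% of energy as fat for 12 weeks, and the control group (2 libraries) ate standard chow for the same time. All mice received an intraperitoneal injection of 3% thioglycollate medium, an irritant that recruits macrophages. The cells were harvested 4 days later, so neither group was taken without this irritant. The labels give no age or sex and do not state if a library is 1 mouse or a pool, so p-values measure only the spread between these samples, which may be technical. RNA was depleted of ribosomal RNA before paired-end sequencing, which leaves RNAs without a poly(A) tail in the libraries.

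C/D box snoRNAs direct methylation of the ribose in ribosomal RNA through fibrillarin (Fbl), and H/ACA box snoRNAs direct the conversion of uridine to pseudouridine through dyskerin (Dkc1). The scaRNAs do the same to spliceosomal small nuclear RNAs in Cajal bodies. Most of these RNAs in mammals lie in introns: the intron is spliced out, debranched and trimmed by exonucleases until the protein-bound small RNA remains. Many hosts encode ribosomal or nucleolar proteins, while Gas5 and most Snhg genes are classed as noncoding (Snhg11 has a protein-coding transcript in these models) and several of their spliced RNAs are removed by nonsense-mediated decay.

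The sequences shown are those of the small RNA that passed the test, its neighbour in the same host, the H/ACA RNA with the next smallest p-value and the 4 most abundant C/D RNAs. They are given 5′ to 3′ from GENCODE M21 transcripts on GRCm38, whereas counts rest on mm9 models. Capitals in Snora43 (chr2:26637847-26637985, minus strand) and Snora17 (chr2:26639190-26639321, minus strand), both in introns of Snhg7, mark the runs of at least 10 bases that they share.
Snora43: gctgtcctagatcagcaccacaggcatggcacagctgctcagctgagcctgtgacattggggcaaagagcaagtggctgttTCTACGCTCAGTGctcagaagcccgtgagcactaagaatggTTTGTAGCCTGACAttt
Snora17: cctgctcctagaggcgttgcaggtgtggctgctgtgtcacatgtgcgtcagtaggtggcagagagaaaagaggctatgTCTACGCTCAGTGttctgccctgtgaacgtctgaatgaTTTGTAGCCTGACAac
In Snora52 (chr7:141448803-141448939, plus strand), held by the ribosomal protein gene Rplp2, capitals mark the ACA that gives the class its name.
Snora52: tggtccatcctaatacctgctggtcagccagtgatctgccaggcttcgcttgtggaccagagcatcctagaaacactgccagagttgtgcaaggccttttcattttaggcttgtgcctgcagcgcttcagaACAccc
In the C/D RNAs, capitals mark the letters TGATGA within the first 15 bases (box C) and CTGA within the last 15 (box D), where present. They lie at chr2:144265979-144266216 (Snord17, minus), chr19:8725866-8725991 (Snord22, plus), chr7:99482785-99482932 (Snord15a, minus) and chr7:99479563-99479707 (Snord15b, minus).
Snord17: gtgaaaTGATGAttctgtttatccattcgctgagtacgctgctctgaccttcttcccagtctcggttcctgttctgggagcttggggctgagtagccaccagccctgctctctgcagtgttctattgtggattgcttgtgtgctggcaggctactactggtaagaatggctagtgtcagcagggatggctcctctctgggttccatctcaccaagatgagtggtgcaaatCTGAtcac
Snord22: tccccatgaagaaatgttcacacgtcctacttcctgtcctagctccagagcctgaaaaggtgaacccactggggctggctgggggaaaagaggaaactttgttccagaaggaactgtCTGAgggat
Snord15a: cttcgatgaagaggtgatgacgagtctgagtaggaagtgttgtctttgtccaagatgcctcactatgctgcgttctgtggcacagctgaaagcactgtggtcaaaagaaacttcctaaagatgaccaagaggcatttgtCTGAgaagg
Snord15b: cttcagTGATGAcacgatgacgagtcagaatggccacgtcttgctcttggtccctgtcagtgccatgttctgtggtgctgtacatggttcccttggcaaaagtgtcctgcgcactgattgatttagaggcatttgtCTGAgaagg

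Snora43 and Snora17 were identical at 67.8% of aligned positions with a longest shared run of 14 bases. Snord15a and Snord15b were identical at 66.0%, with a longest shared run of 21 bases. Read on the RNA strand, TGATGA stood in the first 15 bases of 37 of 67 C/D members with a GENCODE transcript (55.2%), against 0.519% of all 141767 GENCODE transcripts. CTGA stood in the last 15 bases of 61 of the 67 (91.0%, against 7.11% of all transcripts), and ACA in the last 8 bases of 34 of 36 H/ACA members (94.4%, against 11.5%). Box letters of the class named by the symbol thus stood in most members, and a missing match says only that these exact letters are not in the window.

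The 4 libraries held 45658551 and 40527591 counts on genes in the high-fat group and 39846646 and 39347347 in the control group, and libraries within a group differed by far more than sampling noise. All 5 macrophage identity genes were measured: Lyz2, the myeloid lysozyme, had 16399 and 20995 CPM (the count relative to the adjusted total of its library) in high-fat macrophages, against 22930 and 22094 CPM in control macrophages. In 4 of these genes the high-fat libraries were the 2 lowest, where 24.9% of all genes were lower in this way and 26.1% higher. Of the 5, 4 had a log2 fold change below 0 (median −0.18). None was called by edgeR or limma-voom, 1 had an unadjusted p under 0.05, and DESeq2 called it lower. It was Csf1r, the receptor of the macrophage growth factor, at 383 and 365 CPM in high-fat macrophages, against 575 and 499.6 CPM in control macrophages, which is −0.52 ± 0.11 on the log2 scale (adjusted p 0.070 by edgeR). Lists of genes of other cell types held 1 or 2 edgeR calls each, where 0.612% of all genes were called. In each list most kept genes lay on the same side of 0. Over all genes, DESeq2 called 2.87%, and 8.56% were higher and 8.46% lower at an unadjusted p under 0.05 by edgeR. The summed level of 13 mesothelial and fibroblast genes was 174 and 86.3 CPM in high-fat libraries, against 21.02 and 28.3 CPM in control libraries. Of these, 11 were kept for testing, 1 was called higher (Lum, a small matrix proteoglycan) and no defining gene was at 0. All 11 had a log2 fold change above 0 (median 2.15), and 10 had an unadjusted p under 0.05 by edgeR. DESeq2 called 5 higher and limma-voom 1, and in 10 the high-fat libraries were the 2 highest. Summed neutrophil genes (9 measured, 8 kept, 2 called lower) came to 58.7 and 55.5 CPM in high-fat libraries, against 90.9 and 93.8 CPM in control libraries. All 8 kept were below 0 (median −1.19), and 5 had an unadjusted p under 0.05 by edgeR. DESeq2 called 4 lower and limma-voom 1, and in 5 the high-fat libraries were the 2 lowest. Dendritic cell genes (8 measured, 7 kept, 1 called lower) came to 9.44 and 15.2 CPM in high-fat, against 16.3 and 16.9 CPM in control libraries. Of the 7 kept, 6 were below 0 and 1 above (median −1.69), and 5 were lower at an unadjusted p under 0.05 by edgeR. DESeq2 called 2 lower and limma-voom 1. The high-fat libraries were the 2 lowest in 5 and the 2 highest in 1. B cell genes (10 kept, 1 called higher) came to 114 and 207 CPM in high-fat, against 124 and 114 CPM in control libraries. Of the 10, 9 were above 0 and 1 below (median 0.96), with 2 higher and 1 lower at an unadjusted p under 0.05 by edgeR. DESeq2 called 1 higher and limma-voom 0. The high-fat libraries were the 2 highest in 3 and the 2 lowest in 1. No gene of these 3 lists that was measured was at 0 in all libraries. The B cell sums of the diets overlapped. The part of these other cells in the results below was not tested. In bulk RNA, fewer cells of a type and less RNA per cell cannot be told apart.

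Of the 129 members, 115 had at least 1 count (102 small RNAs and 13 host genes) and 109 had counts in every library. The other 14 were at 0 in all libraries, which allows a level of up to 0.0646 to 0.0773 CPM per library (3 counts, counting error only). They were 13 small RNAs and Snhg14, known as the host of the Snord116 cluster of the Prader-Willi region. The Snhg14 model counted here spans 4855 bases and holds 0 of the small RNA models, so it does not cover that cluster. Of the 13 small RNAs at 0, 9 have an exon that overlaps an exon of another model, so a read on them may match more than 1 gene and be left uncounted. Overlap was present in 15 of the 115 small RNA models, and of the 100 without it, 4 were at 0: Snord55, Snord64, Snora35 and the copy of Snord58b on chromosome 14. A filter on low counts kept 94 members for the test: 46 C/D RNAs, 30 H/ACA RNAs, 7 scaRNAs and 11 host genes. Of these, 5 small RNAs passed only through the control libraries and none passed only through the high-fat libraries.

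Levels among the 83 kept small RNAs spanned from 0.255 to 1243 CPM (mean of 4 libraries), and 5 RNAs held 76.4% of the summed level. The highest was Snord17, a long C/D RNA in an intron of the sorting nexin gene Snx5. It had 868 and 1093 CPM in high-fat macrophages, against 1298 and 1715 CPM in control macrophages. Snord22, the RNA from which the U22 host gene Snhg1 takes its older name and which in Xenopus is needed to process the small subunit rRNA, had 599 and 1235 CPM in high-fat macrophages, against 865 and 1217 CPM in control macrophages. The high-fat libraries of Snord22 thus lay on both sides of the control libraries. Snord15b and Snord15a, both held by the ribosomal protein gene Rps3, had 461 and 746 CPM and 230 and 326 CPM in high-fat macrophages. In control macrophages Snord15b had 575 and 878 CPM and Snord15a had 246 and 449 CPM. Scarna10, which in human cells guides modification of the U5 small nuclear RNA, had 314 and 401 CPM in high-fat macrophages, against 375 and 576 CPM in control macrophages. The ranges of the diets overlapped for Snord15a, Snord15b and Scarna10. The next 3 by level, Snora74a, Snora81 and Scarna6, had means over 4 libraries of 105 to 172 CPM.

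**Figure D1:**
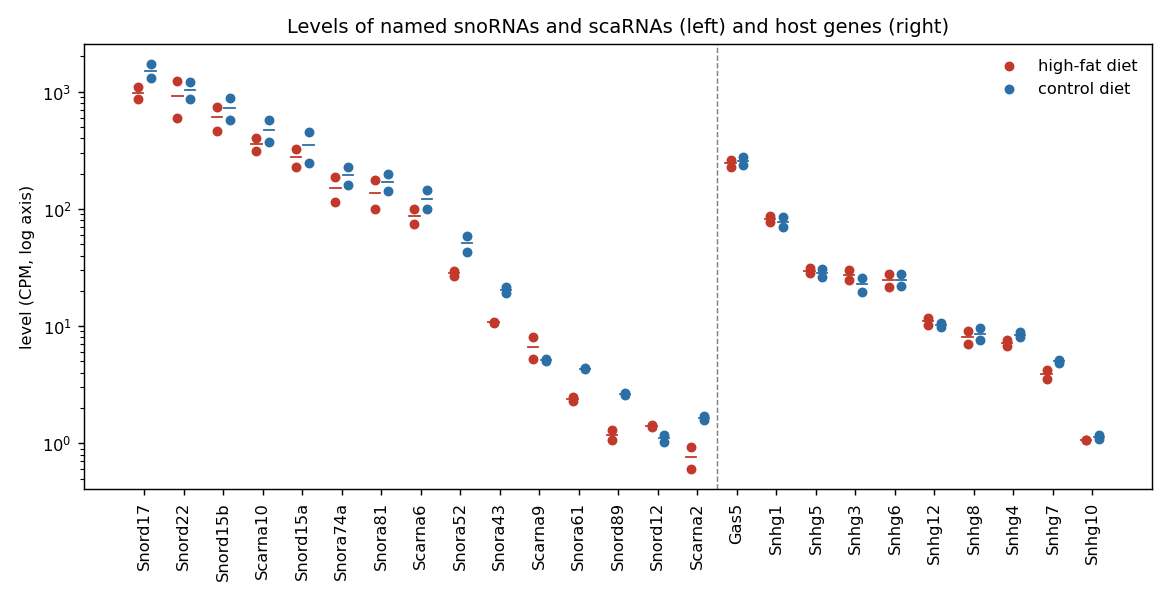
Levels (CPM, log axis) of the 15 small RNAs and 10 host genes named by rule, with 1 point for each library, red for high-fat and blue for control, and a short line at each diet's mean of 2 libraries. Snord17, Scarna6, Snora43, Snora52, Snora61, Snord89 and Scarna2 have both high-fat points below both control points, and the most abundant hosts have points that overlap.

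Level followed the length of the counted model. The 4 kept C/D RNAs of 100 bases or more had a median of 822 CPM, while the 42 shorter ones had a median of 0.986 CPM and a maximum of 12.3 CPM, and 37 of them were below 3 CPM. H/ACA RNAs, which are longer as a class, had a median of 13.5 CPM. Across the 83 kept small RNAs, Spearman's rho of model length with CPM was 0.667, and 0.532 with CPM per kilobase. This is a description over RNAs that share libraries, size selection and counting, not a test. Levels of short members are given as levels in these size-selected libraries, and the part of size selection in them was not tested. Model length also differs from the RNA: of 112 small RNA models with a GENCODE match, 95 were shorter than the GENCODE transcript, 10 equal and 7 longer, with a median of 88.8% of its length. Scarna10 was counted on 71 of 325 bases, Scarna2 on 61 of 414 and Snora61 on 62 of 130.

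**Figure D2:**
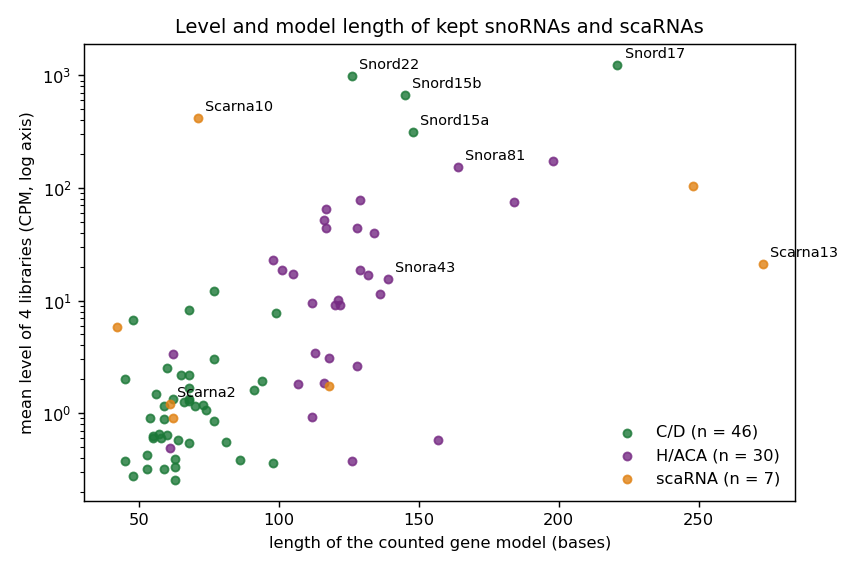
Mean level over 4 libraries (CPM, log axis) against the length of the counted model in bases for the 83 kept small RNAs, coloured by class. C/D RNAs under 100 bases lie at or below 12.3 CPM, the 4 longer ones lie at or above 313 CPM, and Scarna10 stands high for its 71 counted bases.

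Snora43, an H/ACA RNA, was the member that differed between diets past the threshold of an adjusted p of 0.05. It lies at chr2:26493367-26493505 on mm9 (minus strand) in an intron of Snhg7. It had 507 and 428 counts in high-fat macrophages, or 10.9 and 10.7 CPM, against 776 and 832 counts in control macrophages, or 19.3 and 21.4 CPM. Both high-fat libraries lay below both control libraries, at means of 10.8 ± 0.148 CPM in high-fat and 20.4 ± 1.52 CPM in control macrophages (SD, n = 2 each). The log2 fold change, high-fat over control, was −0.91 ± 0.13 (SE), with an adjusted p of 0.029 by edgeR's quasi-likelihood test over 12747 genes. The call was lost when either control library was left out (adjusted p 0.078 without control replicate 1 and 0.117 without control replicate 2), while the log2 fold change stayed between −0.99 and −0.83.

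Across the 94 kept members, 1 was called lower and 0 were called higher. Over all genes tested 0.612% were called, 0.29% lower and 0.322% higher, so a single call among 94 is no result about the members as a group. Without adjustment, 11 members had p under 0.05 with a lower level (8.46% of all genes) and 0 with a higher level (8.56% of all genes). DESeq2 called 4 members lower, namely Scarna13, Snora43, Snora52 and Snord17, and 0 higher, where it called 2.87% of all genes, 1.57% lower. Limma-voom called Snora43 only.

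The median log2 fold change was −0.22 over the 83 kept small RNAs, beside −0.0054 over all 12747 genes, and 57 of the 83 were below 0. By class the median was −0.18 for C/D RNAs, −0.21 for H/ACA RNAs and −0.50 for scaRNAs. Both high-fat libraries lay below both control libraries in 25 of the 83, and above them in 3, where 24.9% and 26.1% of all genes did so. These counts include 5 RNAs (Snord37, Snord49b, Snord67, Snord68 and Snora47, named after their values were seen) that passed the filter through the control libraries alone, and 4 of these 5 are among the 25. Without them, and with genes of that kind left out of the background in both directions, 21 of 78 were lower (26.9%, against 24.6% of all genes) and 3 were higher (3.85%, against 25.7%), with a median of −0.18. This leaving out was chosen after the data were seen. The share that was lower is near the background. These medians turned on single libraries: the median over small RNAs was 0.040 without high-fat replicate 1 and 0.0014 without control replicate 2, against −0.53 without high-fat replicate 2 and −0.37 without control replicate 1. It was also 0.026 after the smooth trend of counts on exon length was removed from each library. In that fit the C/D median was 0.055, the H/ACA median −0.020 and the scaRNA median −0.34. The trend was drawn over all kept genes, these small RNAs among them, so that fit is no independent check of the median.

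**Figure D3:**
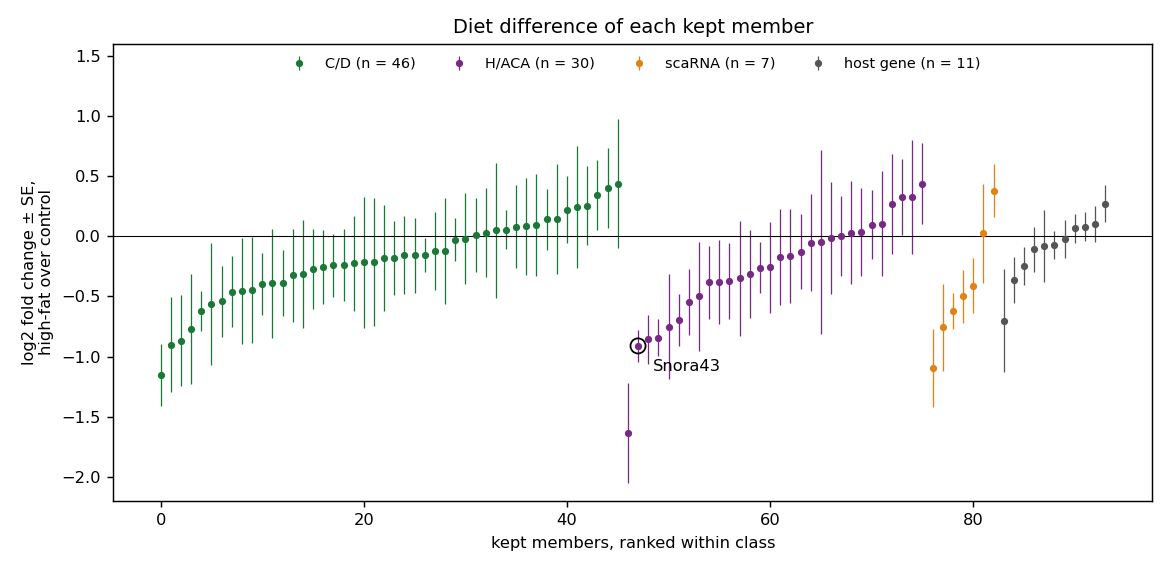
Log2 fold change of high-fat over control with its standard error for the 94 kept members, ranked within each class. Most points lie below 0 and most error bars reach near or across it, and the circled Snora43 at −0.91 is the member past the threshold.

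Among other small RNAs with a mean of at least 1 CPM and no overlap between the diets, the lowest log2 fold changes belonged to Snord89, Scarna2, Snora61 and Snora52 beside Snora43, and none of these 4 passed the threshold. Snord89, a C/D RNA, had 1.29 and 1.08 CPM in high-fat macrophages, against 2.68 and 2.60 CPM in control macrophages, which is −1.15 ± 0.26 on the log2 scale (adjusted p 0.083 by edgeR). Snora52 had 26.9 and 29.7 CPM in high-fat, against 42.6 and 58.9 CPM in control macrophages, which is −0.84 ± 0.15 on the log2 scale (adjusted p 0.060 by edgeR), and its host Rplp2 was at −0.23 ± 0.12. The diets were separated in both RNAs, and Snord89 rested on 43 to 108 counts per library. Scarna2, which in human cells guides methylation of the U2 small nuclear RNA, had 0.926 and 0.601 CPM in high-fat, against 1.59 and 1.70 CPM in control macrophages. Snord17, the most abundant member, had a log2 fold change of −0.62 ± 0.17 (adjusted p 0.138 by edgeR), while Snx5 was at 0.086 ± 0.13. The 3 small RNAs whose high-fat libraries both lay above the control libraries were Scarna9, Snord12 and Snord52, the last at a mean of 0.881 CPM and named after its values were seen. Scarna9 had 5.23 and 8.06 CPM in high-fat macrophages, against 4.99 and 5.20 CPM in control macrophages, which is 0.38 ± 0.22 on the log2 scale (adjusted p 0.410 by edgeR).

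Small RNA levels also differed between libraries of the same diet, most clearly among H/ACA RNAs and the 4 C/D RNAs of 100 bases or more. The summed level of the 83 kept small RNAs was 3224 and 5043 CPM in high-fat libraries 1 and 2, against 4376 and 6278 CPM in control libraries 1 and 2. High-fat library 2 thus exceeded control library 1, and the gap between the libraries of each diet was larger than the gap between the means of the diets. High-fat library 1 was the lowest of the 4 for 49 of the 83 small RNAs, made up of 26 of 30 H/ACA RNAs, 20 of 46 C/D RNAs and 3 of 7 scaRNAs, and control library 2 was the highest for 43 of the 83. Measured from each RNA's mean over the 4 libraries on the log2 CPM scale, the median H/ACA RNA stood at −0.49 and 0.27 in high-fat libraries 1 and 2, and at −0.13 and 0.39 in control libraries 1 and 2. For C/D RNAs the medians were −0.19 and 0.039 in high-fat libraries, against −0.10 and 0.22 in control libraries. Among these, the 4 C/D RNAs of 100 bases or more had medians of −0.48 and 0.16 in high-fat, against −0.14 and 0.48 in control libraries. For scaRNAs the medians were −0.27 and −0.039 in high-fat libraries, against −0.021 and 0.51 in control libraries. For the 11 host genes the same medians were −0.14 and 0.11 in high-fat libraries, against −0.11 and 0.14 in control libraries. The share of alignments placed at more than 1 site in the genome was 37.5% and 42.6% in high-fat libraries, against 41.5% and 48.5% in control libraries (95% Wilson intervals within 0.00999 percentage points either side). That share put the 4 libraries in the same order as the summed small RNA level did, and its part in these levels was not tested.

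**Figure D4:**
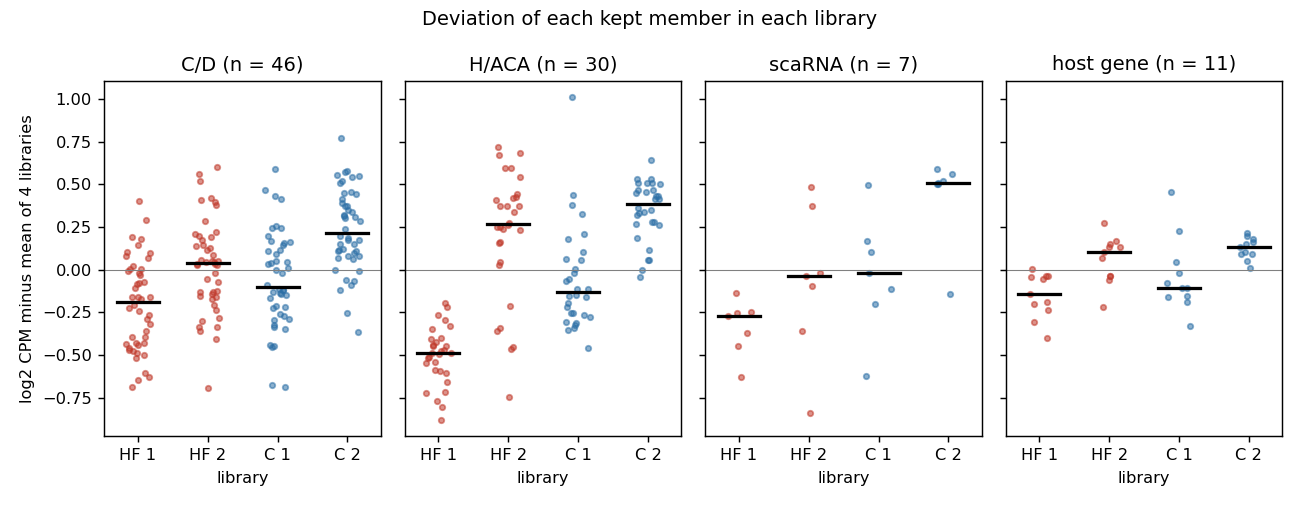
Log2 CPM of each kept member minus its mean over the 4 libraries, in panels by class, with red points for high-fat (HF) and blue points for control (C) libraries and a black line at the median. In the H/ACA panel, libraries HF 1 and C 1 have medians of −0.49 and −0.13 and libraries HF 2 and C 2 have medians of 0.27 and 0.39, while host genes stay nearer 0.

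The host genes were counted apart from the small RNAs. Of 14 Snhg genes and Gas5, 13 had counts, 11 were kept and 0 were called by edgeR, DESeq2 or limma-voom, with 0 at an unadjusted p under 0.05. Their median log2 fold change was −0.075, with 4 above 0 and 7 below, and it was between −0.19 and 0.070 when 1 library at a time was left out. Gas5, whose RNA accumulates when growth stops and which is held down by nonsense-mediated decay, had 227 and 261 CPM in high-fat macrophages, against 237 and 277 CPM in control macrophages. Its log2 fold change was −0.075 ± 0.12, so the diets overlapped. Snhg1 had 76.6 and 86.6 CPM in high-fat, against 69.4 and 84.8 CPM in control macrophages, a log2 fold change of 0.081 ± 0.12. Snhg5, Snhg3 and Snhg6 followed with means of 24.7 to 29.1 CPM, and the largest positive log2 fold change among hosts was that of Snhg3, 0.27 ± 0.15 (24.9 and 29.9 CPM in high-fat, against 19.7 and 25.7 CPM in control macrophages). In 4 hosts (Snhg4, Snhg7, Snhg10 and Snhg9, the last named after its values were seen) both high-fat libraries lay below both control libraries, and in 0 above them, where 24.9% and 26.1% of all genes did so. For Snhg4 the values were 6.74 and 7.56 CPM in high-fat macrophages, against 8.02 and 8.91 CPM in control macrophages, which is −0.24 ± 0.16 on the log2 scale (adjusted p 0.460 by edgeR).

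Per kilobase of exon, the order of the hosts was Snhg1 (167 CPM per kb), Gas5 (98.1), Snhg6 (60.8), Snhg3 (57.3) and Snhg5 (28.8), as means over all 4 libraries. The Gas5 model is wide: its 4 exon blocks cover 75.7% of its span, against 16.8% for the 10 blocks of Snhg1, so some reads from Gas5 introns may count for the gene. Snhg18 was counted too thinly to be kept, at 33 and 8 counts in high-fat libraries against 1 and 4 counts in control libraries, and is named after its values were seen. Fitted without the low-count filter it was called higher, at a log2 fold change of 2.80 ± 0.78 (adjusted p 0.047 by edgeR). The 4 libraries stand in the same order in the mesothelial and fibroblast sums, 174 and 86.3 CPM in high-fat, against 21.02 and 28.3 CPM in control, whose part in the Snhg18 counts was not tested.

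By the deposited models, 103 small RNAs lie in introns of 77 genes. Of these, 31 lie in 22 ribosomal protein genes, 49 in 40 other coding genes, 13 in 9 Snhg genes or Gas5 and 10 in 6 other noncoding genes. Among these models, Gas5 and Snhg1 hold 1 small RNA each (Snord47 and Snord22), and Snhg12 holds 4. In 78 cases both the small RNA and its host were kept. None of the 62 hosts was called by edgeR. At an unadjusted p under 0.05, 3 were higher and 6 lower, where 8.56% and 8.46% of all genes were, so these counts are near the background or below it. None was called by limma-voom, and 2 were called by DESeq2 (Nop58 and Rpl37, the last named after its values were seen). The median log2 fold change was −0.20 for the small RNAs and −0.064 for the hosts, and the small RNA lay below its own host in 53 of 78 pairs. No such share for other pairs of genes is given here, so the 53 is no result about the pairs. The median over all kept small RNAs ran from −0.53 to 0.040 when 1 library at a time was left out. No such range is given for the pairs or for the host types. Over the 78 pairs, which share libraries and in part hosts, Pearson's r was 0.365 and Spearman's rho 0.278, given as a description. By host type, the medians of small RNAs and of hosts were −0.26 and −0.088 for ribosomal protein genes, −0.052 and 0.031 for other coding genes, −0.32 and −0.078 for Snhg genes and Gas5, and −0.31 and −0.018 for other noncoding genes.

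**Figure D5:**
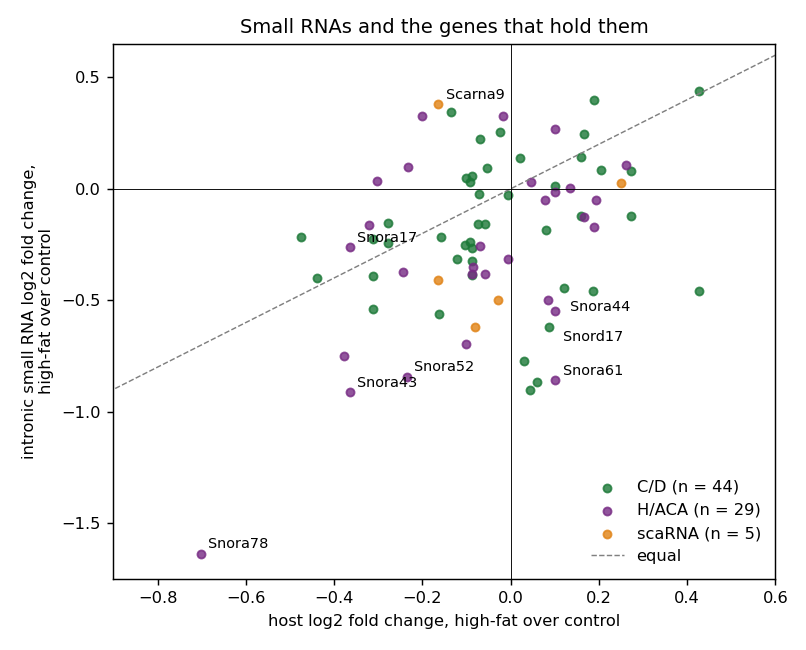
Log2 fold change of each kept intronic small RNA (vertical) against that of the gene that holds it (horizontal), high-fat over control, for 78 pairs coloured by class, with a dashed line where both are equal. Hosts lie between −0.70 and 0.43 while small RNAs reach from −1.64 to 0.44. As a description only, 53 points lie below the line. Snora78 is labelled as the extreme point.

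Small RNAs of the same host were set side by side. In Snhg7, whose level was 3.55 and 4.23 CPM in high-fat macrophages, against 5.17 and 4.84 CPM in control macrophages (log2 fold change −0.36 ± 0.19), Snora43 was at −0.91 and Snora17 at −0.26 ± 0.21. Snora17 had 13.7 and 16.7 CPM in high-fat macrophages, against 14.3 and 22.2 CPM in control macrophages, so its diets overlapped. The ratio of Snora43 to Snhg7 counts was 3.07 and 2.53 in high-fat libraries, against 3.73 and 4.43 in control libraries. Snhg12 (0.10 ± 0.15) holds 4 kept small RNAs, of which Snora61 was at −0.86 ± 0.21, Snora44 at −0.55 ± 0.27, Snora16a at −0.016 ± 0.47 and Snord99 at 0.011 ± 0.31. None of these differed past the threshold, and whether they differ from each other was not tested. Among all 13 genes with more than 1 kept small RNA (29 small RNAs), the highest and lowest log2 fold changes in a gene lay 0.055 to 0.89 apart, with a median of 0.32, and 8 of the genes held both signs. The widest gap was in Nop58, which holds Snord11 (0.44) and Snord70 (−0.46), and the narrowest in Rps3, whose Snord15a (−0.32 ± 0.39) and Snord15b (−0.27 ± 0.33) lay well within their errors. Snora17, Snora44, Snora16a, Snord99, Snord11 and Snord70 are named after their values were seen. Over all 78 pairs, the ratio of small RNA to host counts was lower in both high-fat libraries than in both control libraries in 17. It was higher in 6 and overlapping in 55. No such share for ratios over all genes is given here, so these counts are no result about the pairs. For levels, 24.9% of all genes were lower in this way and 26.1% higher. An exact permutation test of 2 against 2 libraries cannot give a p below 0.333.

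Per kilobase, scaRNAs exceeded their hosts in all 5 pairs, with a median ratio of 36.7, and H/ACA RNAs did so in 16 of 29 pairs (median ratio 1.17). C/D RNAs did so in 8 of 44 pairs, with a median ratio of 0.276. The divisor is the length of the counted model, which is 71 of 325 bases for Scarna10 and 42 of 70 for Scarna9. Levels also followed model length, so these ratios do not compare the classes directly. A ratio under 1 says that fewer reads per kilobase fell on the small RNA model than on the spliced host. The counts do not separate mature small RNAs from unspliced host RNA that crosses the same bases.

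Genes that build and use these RNAs showed small differences. All 4 proteins of the C/D particle were kept, with 0 called by edgeR, 1 at an unadjusted p under 0.05, 0 called by limma-voom and 1 by DESeq2, and their median log2 fold change was 0.14. That gene, Nop58, a scaffold of the C/D particle, had 131 and 155 CPM in high-fat macrophages, against 101 and 111 CPM in control macrophages, which is 0.43 ± 0.11 on the log2 scale (adjusted p 0.115 by edgeR). Of the 4 H/ACA proteins, 0 were called by edgeR, DESeq2 or limma-voom and 1 had an unadjusted p under 0.05, with a median log2 fold change of 0.035. That gene was Dkc1, the pseudouridine synthase, at 49.1 and 55.1 CPM in high-fat, against 44.4 and 41.0 CPM in control macrophages, a log2 fold change of 0.29 ± 0.10.

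The lists of assembly, rRNA processing, trimming and decay factors were alike in giving 0 calls by edgeR, DESeq2 and limma-voom. Assembly and Cajal body factors (15 kept) had a median log2 fold change of 0.076, and 1 had an unadjusted p under 0.05. Processome and rRNA processing genes (32 kept) had a median of 0.11, with 21 above 0 and 6 higher and 0 lower at an unadjusted p under 0.05, where 8.56% and 8.46% of all genes were. Debranching and trimming factors (18 kept) had a median of 0.14, with 13 above 0 and 3 higher and 1 lower at an unadjusted p under 0.05. Among the higher genes were Exosc9 (0.32 ± 0.11 on the log2 scale) and Xrn2 (0.23 ± 0.096). The lower gene was Xrn1, a cytoplasmic exonuclease, at 24.4 and 24.2 CPM in high-fat macrophages, against 31.6 and 33.1 CPM in control macrophages. Its log2 fold change was −0.41 ± 0.11 (adjusted p 0.115 by edgeR). Nonsense-mediated decay factors (16 kept) had a median of −0.043, with 1 lower at an unadjusted p under 0.05. Where the small RNAs had a median of −0.22, the lists of their proteins and processing factors thus had medians of −0.043 to 0.14. The small RNA median ran from −0.53 to 0.040 when 1 library at a time was left out. No such range is given for the lists, and whether the medians differ was not tested.

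Of 13 listed small structured RNAs of other classes, 8 were in the gene models and 6 were kept. Of the 6, edgeR called 2 lower and 0 higher, where 0.29% and 0.322% of all genes were. Rmrp, the RNA of RNase MRP, which cleaves the rRNA precursor, had 601 and 504 CPM in high-fat macrophages, against 1069 and 1123 CPM in control macrophages, which is −0.99 ± 0.12 on the log2 scale (adjusted p 0.016 by edgeR). Rpph1, the RNA of RNase P, was at −0.86 ± 0.097 (adjusted p 0.015 by edgeR), and the median of the 6 was −0.38. Rnu11 at −0.34 ± 0.30, Rnu12 at −0.43 ± 0.53 and Vaultrc5 at −0.15 ± 0.51 were not called, and 1 of the 6 lay above 0.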

How the data were processed

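Peritoneal macrophage RNA, freed of ribosomal RNA with Ribo-Zero, was made into size-selected paired-end libraries, per the labels' protocols. The authors deposited raw whole-number counts per gene, 1 table per library, and the gene models used for counting, with mm9 coordinates. TopHat2 2.0.10, Cufflinks 2.1.1, HTSeq and mm9 are named in the submitters' processing notes; settings and use of strand in counting: not given in the sources used here. Each table ends in 5 summary lines that belong to no gene. They were left out of the gene counts and tests and served only for shares of alignments. They include alignments at several places (37.5% to 48.5% of all lines), which limits what multi-copy snoRNAs can receive.

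Low counts were filtered with filterByExpr (edgeR 4.0.16, minimum count 10, minimum total 15), leaving 12747 genes. The test was edgeR's quasi-likelihood test with TMM normalization, robust fitting and diet as the only term (2 residual degrees of freedom), with Benjamini-Hochberg adjustment over all kept genes and a threshold of 0.05. Each SE is the absolute log2 fold change over the root of its F value. CPM is a count over the TMM-adjusted library total. DESeq2 1.42.0 and limma-voom 3.58.1 were alternatives, and the fit was tested on simulated data with 200 changed genes. A host is a gene on the same strand whose intron holds the small RNA.

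Named genes are members past the threshold, the 8 highest by mean CPM among small RNAs and among hosts, the 5 highest and 5 lowest fold changes among non-overlapping members of at least 1 CPM, their hosts, and called or up to 3 further genes per list by smallest p. Members and lists were chosen with earlier results of these data known.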

Additional observations from a re-analysis of the deposited data

How the results depend on the processing

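Over all genes, 78 were called; the count was 366 with DESeq2, 28 with limma-voom, 522 without the low-count filter, 46 with at least 1 CPM in 2 libraries, 169 with the length trend removed and 3 to 823 when 1 library was left out. Members called were 1, against 4 with DESeq2, 8 without the filter (1 of them a host, Snhg18, called higher), 2 with the length trend removed and 0 to 18 when 1 library was left out (18, all lower, without high-fat replicate 2; 8 without high-fat replicate 1; 1, Snora52, without control replicate 1; 0 without control replicate 2). The small RNA median was −0.18 without the 5 small RNAs that passed the filter through control libraries alone, a setting chosen after seeing the data. The medians ran from −0.53 to 0.040 for small RNAs and from −0.19 to 0.070 for hosts when 1 library was left out. The cause was not tested. With replicate block, 113 genes and 3 members (Snora43, Snora52 and Snord17) were called. Same-numbered libraries share only a number: their deviations from the diet means correlated at 0.0888 over all genes, 0.348 over small RNAs and 0.314 over hosts. Snora43 was called, and its log2 fold change stayed negative, under every setting that used all 4 libraries.

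Signs turned for Snhg6 (0.099) and Snhg10 (0.0055) with the length trend removed. Leaving out 1 library gave both signs for Snord22 (−0.80 to 0.25), Snord15b (−0.66 to 0.069), Snord15a (−0.70 to 0.18), Snora81 (−0.78 to 0.042), Gas5 (−0.19 to 0.043), Snhg1 (−0.062 to 0.23), Snhg5 (−0.061 to 0.20), Snhg6 (−0.21 to 0.15), Snhg12 (−0.0033 to 0.20) and Snhg8 (−0.30 to 0.070). Median-ratio size factors, scaling on coding genes and fitting without robust estimates turned no sign among the 25 named members. Depth limits the members with few counts, among them the 37 short C/D RNAs below 3 CPM and the 21 members counted but not kept.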
